A study of Mus musculus with 14 samples.

Results

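Expression of 6 genes was followed across all 14 libraries of a bulk RNA sequencing study of mouse neck skin: the cytokine genes Tslp and Il33 and the receptor chain genes Crlf2, Il7r, Il1rl1 and Il1rap. They were chosen by symbol as epithelial alarmins of type 2 inflammation and the chains of their receptors, with earlier results of these data known. The deposited table held 35328 symbols, and all 6 were among the 20940 genes that passed the filter on low counts. All mice were labelled as female C57BL/6J. Untreated wild-type skin from mice of 6 weeks gave 2 libraries. In 4 further groups of 3 libraries each, the shaved neck had received MC903, the vitamin D analogue calcipotriol, which brings on dermatitis, at 1 nmol in 100 µL a day for 6 days. The isotype and MAR1 groups were wild-type mice of 6 weeks injected with 20 µg of a control antibody or of MAR1, which binds the IgE receptor's alpha chain. The first 3 injections came ahead of MC903, and they then went on every other day. The fl/fl group were Il4ra fl/fl mice and the cKO group Pdgfra-Cre Il4ra fl/fl mice, both of 6 to 7 weeks and without injections. In the cKO mice Cre is driven by Pdgfra, a gene of fibroblasts and other mesenchymal cells, so other cells keep Il4ra by design. Each sample was 1 mouse by the design text, but the untreated libraries carry nearly the same name, and the labels leave unclear if these are separate mice and if vehicle was applied. The spread among these libraries, which may be technical in part, is all that the p-values measure. Besides MC903, the isotype and MAR1 groups differ from untreated skin in injections, as far as the labels tell. The fl/fl and cKO groups differ from it in genotype, age and experiment as well. In each difference from untreated skin these parts cannot be told apart from MC903.

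TSLP and IL-33 are cytokines of barrier epithelium known as alarmins, because stressed or injured cells release them to start type 2 inflammation. TSLP binds CRLF2, which signals together with the IL-7 receptor alpha chain IL7R through JAK kinases and STAT5. IL-33, a nuclear cytokine of the IL-1 family, binds ST2, the product of Il1rl1, which recruits the accessory chain IL1RAP and signals through MyD88 and NF-κB. IL1RAP also serves the receptors for IL-1 and IL-36. Keratinocytes are the known source of TSLP in skin, where MC903 induces it through the vitamin D receptor, and mast cells, basophils, group 2 innate lymphoid cells and regulatory T cells are known carriers of ST2.

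Library totals were 34330783 to 55299671 counts in untreated, isotype and fl/fl skin, 16501941 to 30830666 in cKO skin and 5781757 to 10625876 in the libraries labelled MAR1. Olfactory and vomeronasal receptor genes, which serve smell and are not known for a role in skin, took 3.86% to 9.29% of counts in the libraries labelled MAR1 and 0.467% to 2.58% in cKO skin, against at most 0.439% in any other library. Il4ra was lower in cKO than in fl/fl skin (14.5 to 70.6 against 145 to 214 CPM, counts per 1000000 counts of a library after TMM scaling of library sizes), and also lower in the libraries labelled MAR1 (8.998 to 45.7 CPM) than with isotype (178 to 195 CPM). Mcpt8, a basophil protease, was higher in the libraries labelled MAR1 than with isotype (25.5 ± 6.76 against 5.02 ± 1.47 CPM, SD, n = 3 each), while Fcer1a, the gene of the chain MAR1 binds, was lower (2.42 ± 2.70 against 29.5 ± 5.19 CPM). Because these go in opposite directions, the group is called by its label. The 4 Y-linked genes summed to 386, 41.8 and 222 CPM in the cKO libraries and to 370 to 618 CPM in those labelled MAR1, against at most 42.2 CPM in any other library, but among the cKO and MAR1 libraries Ddx3y was detected only in cKO library 1, with 69.8 CPM. Meanwhile fl/fl libraries 1 and 2 held salivary gland transcripts (summed 1403 and 20597 CPM, against 7.49 in fl/fl library 3).

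Tslp was scarce in untreated skin, at 2.07 and 3.08 CPM. With isotype antibody and MC903 it stood at 572, 274 and 298 CPM. Every treated library, of whatever group, lay above both untreated ones. In fl/fl skin it stood at 807, 292 and 1211 CPM, in cKO skin at 52.3, 162 and 178 CPM, and in the libraries labelled MAR1 at 13.0, 106 and 48.0 CPM. The isotype and fl/fl values overlapped, and so did the cKO and MAR1 values, but each of the isotype and fl/fl libraries was higher than each cKO and MAR1 library. On the log2 scale the difference from untreated skin was 7.21 ± 1.08 (SE) with isotype (adjusted p = 0.00539, edgeR's quasi-likelihood test with Benjamini-Hochberg adjustment), 8.22 ± 1.13 in fl/fl (adjusted p = 0.00452), 5.66 ± 1.00 in cKO (adjusted p = 0.0121) and 4.43 ± 0.94 in the libraries labelled MAR1 (adjusted p = 0.00224). These comparisons share the untreated libraries. Without untreated library 1 the isotype and cKO calls were lost (log2 6.95 and 5.4, adjusted p = 0.0615 and 0.106), and without untreated library 2 the fl/fl call (log2 8.57, adjusted p = 0.0543). Sizes against untreated skin also moved with single libraries: without untreated library 2 they were 8.0 with isotype, 6.47 in cKO and 5.2 with the MAR1 label, without MAR1 library 2 the last was 3.58, and without fl/fl library 3 the fl/fl value was 7.58.

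Within the treated skin, Tslp was 6.87-fold lower with the MAR1 label than with isotype (log2 -2.78 ± 0.73, adjusted p = 0.00737) and 5.90-fold lower in cKO than in fl/fl (log2 -2.56 ± 0.72, adjusted p = 0.026). The first call held when any 1 library was left out, with adjusted p between 0.00527 and 0.034, and its log2 value was -3.64 without MAR1 library 2, the highest of its group. The second was lost in 6 of 14 such fits: without fl/fl library 1 (log2 -2.20, adjusted p = 0.0884), fl/fl library 3 (-1.68, 0.129), cKO library 1 (-2.18, 0.0742), cKO library 2 (-2.38, 0.0747), cKO library 3 (-2.54, 0.0862) or untreated library 2 (-2.10, 0.0607). Without fl/fl libraries 1 and 2, which hold salivary gland RNA, it was -2.91, but this leaves only fl/fl library 3, the library with the highest Tslp. The cKO difference minus the MAR1 difference was 0.22 ± 0.96 (adjusted p = 0.919), an estimate with a wide error that does not show the differences to be alike. In bulk skin, fewer cells of a type and less RNA per cell cannot be told apart. The 10 keratinocyte markers, none of them at 0 in any library, summed to 19215 to 36878 CPM with isotype and to 3663 to 7183 CPM in the libraries labelled MAR1, where 7 of the 10 were lower than with isotype and 49.1% of all genes were called. They summed to 17870 to 33167 CPM in cKO and to 5120, 24732 and 40113 CPM in fl/fl skin, which overlap, and 2 were higher and none lower in cKO, where 18.7% of all genes were called. Other tissue also moved between cKO and fl/fl skin. The 8 skeletal muscle markers summed to 9442 to 53731 CPM in fl/fl and 20.3 to 2534 CPM in cKO skin, with 6 lower in cKO. The 8 B cell markers summed to 2194, 446 and 4.69 CPM in fl/fl and 18.3 to 56.8 CPM in cKO skin, with 5 lower. The part of these cells in the Tslp level was not tested.

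**Figure D1:**
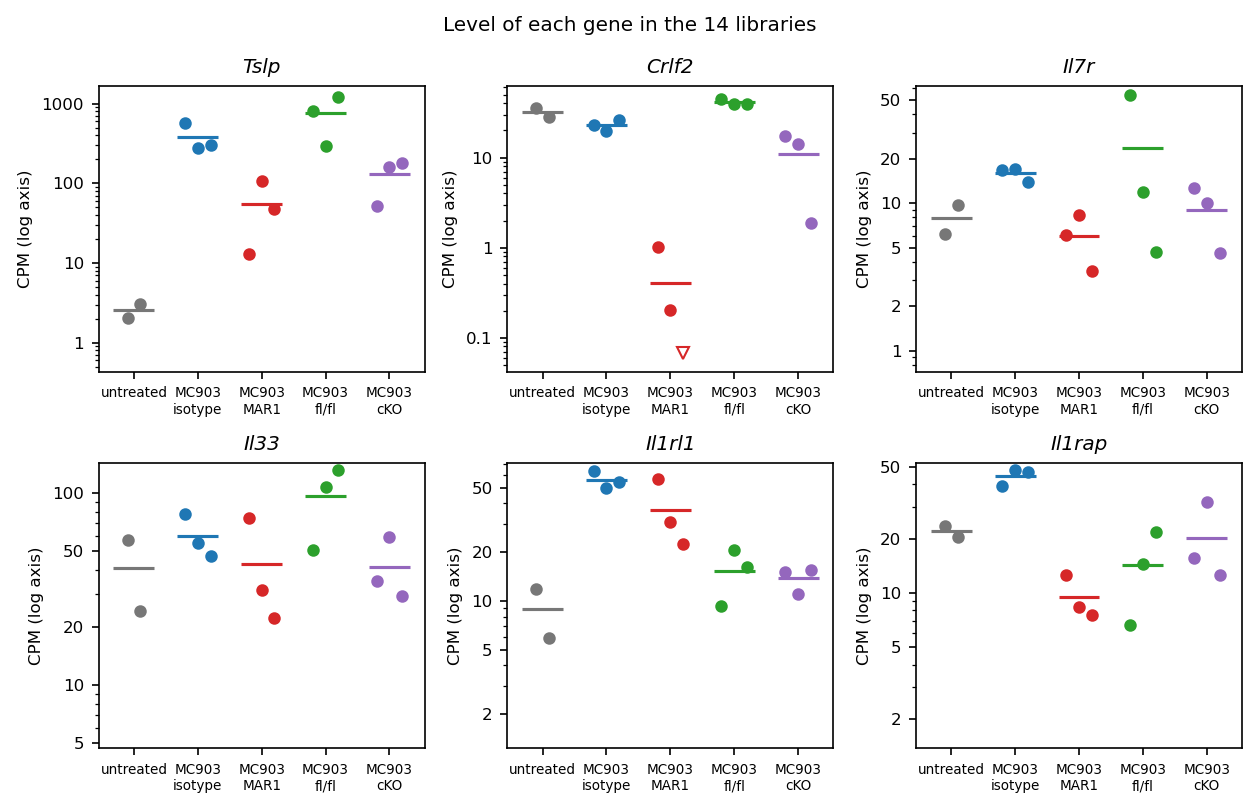
CPM of each gene in the 14 libraries, by group on a log axis, with 1 point per library and a line at the group mean. The open triangle marks a library with 0 counts of Crlf2. Tslp rises from 2.07 and 3.08 in untreated skin to 274 or more with isotype, while Crlf2 is at 1.03 or less in the libraries labelled MAR1.

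Crlf2, the chain that binds TSLP, followed another order. It stood at 35.7 and 28.3 CPM in untreated skin, at 22.9, 19.9 and 26.3 CPM with isotype and at 45.0, 39.7 and 38.9 CPM in fl/fl skin. In cKO skin it stood at 17.3, 13.97 and 1.88 CPM. The libraries labelled MAR1 held 12, 2 and 0 counts of it, or 1.03, 0.201 and 0 CPM, where 3 counts would have been 0.450 CPM in the last. No 2 neighbouring groups overlapped in the order fl/fl, untreated, isotype, cKO and MAR1. Crlf2 was 49.7-fold lower with the MAR1 label than with isotype (log2 -5.63 ± 0.87, adjusted p = 0.000396) and 69.1-fold lower than in untreated skin (log2 -6.11 ± 0.90, adjusted p = 0.000289). Both calls held when any 1 library was left out, with values of -7.56 and -8.04 without MAR1 library 1, and with all libraries thinned to the depth of the shallowest the difference from isotype was -6.45. The difference between cKO and fl/fl skin did not pass (log2 -1.89 ± 0.68, adjusted p = 0.0654). It was -1.07 without cKO library 3 (adjusted p = 0.24) and passed without MAR1 library 1 (log2 -1.89, adjusted p = 0.0426). Isotype and fl/fl skin gave no call against untreated skin (log2 -0.48 ± 0.72 and 0.36 ± 0.74, adjusted p = 0.769 and 0.892).

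The low Crlf2 values were read beside base composition, because Crlf2 is the only GC-rich member. Its longest transcript in GENCODE M21 has 65.6% GC and lies in bin 10 of 10 equal bins of the genes tested by GC content, while the other members have 40.3% to 43.4% GC and lie in bins 1 and 2. With the MAR1 label against isotype, the median difference of a bin's genes ran from 0.65 in bin 1 to -0.87 in bin 10 on the log2 scale, and in cKO against fl/fl from 0.60 to -0.46. The Crlf2 differences of -5.63 and -1.89 lie below the medians of their bin, and those of Tslp, -2.78 and -2.56, lie below medians of 0.65 and 0.60. The part of base composition in these differences was not tested beyond this. Of the genes tested, 92.8% had a transcript to read GC from.

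**Figure D2:**
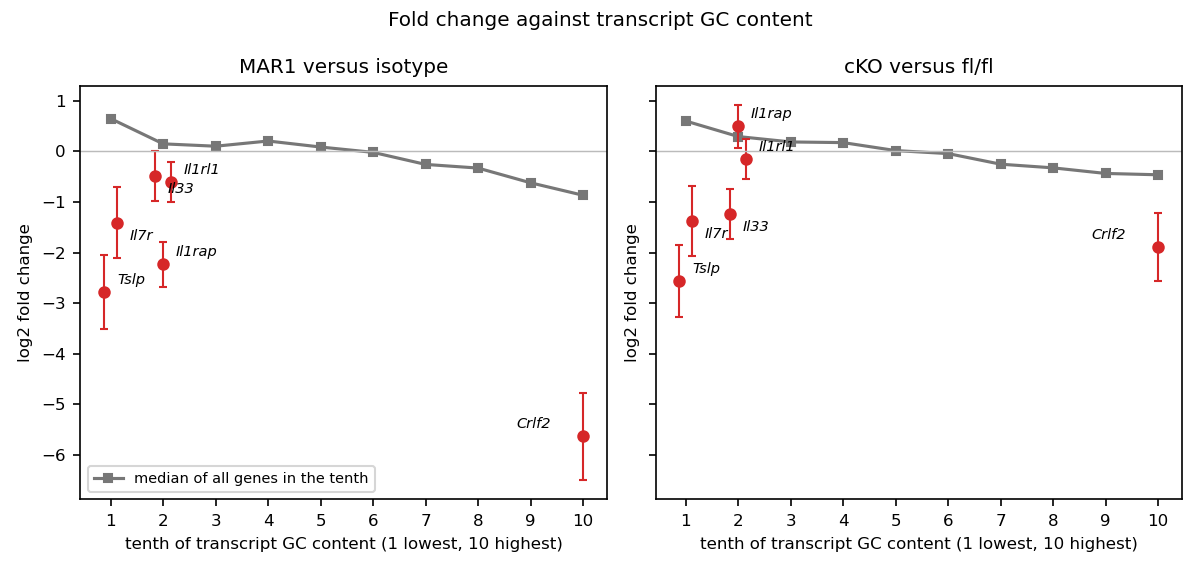
The log2 fold change of each gene (points with SE) and the median of all genes (squares) against the bin of transcript GC content, from low to high, for MAR1 against isotype and cKO against fl/fl. Crlf2 sits alone in bin 10, where the medians are -0.87 and -0.46.

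The promoter of Crlf2 is shown because this gene had the lowest level per kilobase of the 6 in the libraries labelled MAR1. RefSeq on GRCm38.p6 places the 250 bases before its start at chr5:109558994-109559243, minus strand, and they hold 71.6% GC against a median of 52.4% over 32841 promoters. The run is given 5′ to 3′ in lower case, since none of the motifs searched was found in it.
Crlf2 promoter: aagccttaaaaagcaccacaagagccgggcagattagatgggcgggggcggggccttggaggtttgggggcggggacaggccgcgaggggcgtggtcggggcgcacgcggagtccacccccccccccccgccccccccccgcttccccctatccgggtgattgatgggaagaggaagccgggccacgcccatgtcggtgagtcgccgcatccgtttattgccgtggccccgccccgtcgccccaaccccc
The motifs, searched on both strands, were the nuclear receptor half-sites AGGTCA and AGTTCA, a DR3 vitamin D response element, the STAT patterns of TTC and GAA spaced by 3 or by 4 bases, the GATA pattern AGATAA and the NF-κB pattern of GGG and TTCC spaced by 3 bases. They occur in 14.03%, 11.8%, 0.0396%, 7.02%, 5.85%, 9.99% and 4.65% of all promoters in that order. Of the other members, Il7r matched AGTTCA and the STAT pattern with 3 bases between, the upstream start site of Il33 matched that with 4, and Il1rap, with 74.4% GC, matched none. A match describes letters only. Tslp was not in the promoter table.

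Il7r, the partner chain of CRLF2 and also the receptor chain for IL-7 on lymphocytes, varied less between groups. It stood at 6.19 and 9.73 CPM in untreated skin, at 16.8, 17.0 and 13.996 CPM with isotype and at 6.09, 8.34 and 3.45 CPM in the libraries labelled MAR1. The fl/fl libraries held 54.2, 11.9 and 4.69 CPM and the cKO libraries 12.6, 9.95 and 4.58 CPM. The isotype libraries lay above all untreated, cKO and MAR1 libraries, and the fl/fl libraries spread over nearly the whole range. None of the 8 comparisons passed. The largest differences were 1.57 ± 0.80 for fl/fl against untreated skin (adjusted p = 0.314) and -1.41 ± 0.70 for the MAR1 label against isotype (adjusted p = 0.106). The latter passed without fl/fl library 1 or 3 (adjusted p = 0.0303 and 0.0473).

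T cell transcripts moved with Il7r in the fl/fl group. The 10 T cell markers, all detected in each fl/fl library, summed to 1652, 306 and 80.8 CPM there, in the same order as Il7r, against 92.6 to 99.2 CPM with isotype and 170 to 173 CPM in cKO skin. Without fl/fl library 1 the difference between cKO and fl/fl skin turned from -1.38 ± 0.69 (adjusted p = 0.169) to 0.49, and that between fl/fl and isotype from 0.57 to -1.31. In the other groups the orders did not match: the libraries labelled MAR1 held more T cell marker RNA (228 to 330 CPM) than isotype skin and less Il7r. The part of T cells in the Il7r level was not tested.

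**Figure D3:**
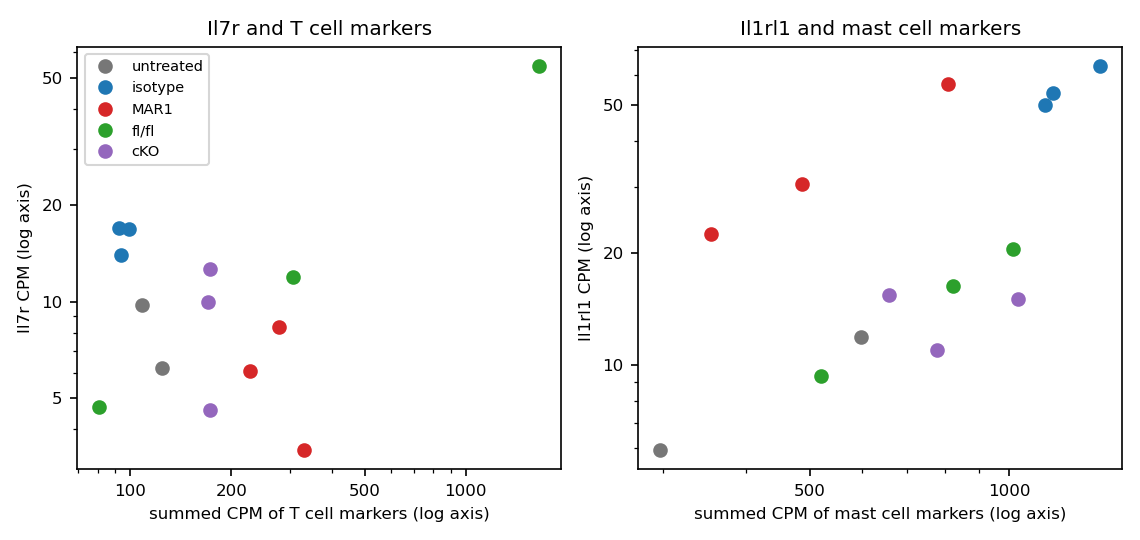
Left, CPM of Il7r against the summed T cell markers; right, Il1rl1 against the summed mast cell markers, with 1 point per library on log axes. The fl/fl library at 1652 on the T cell axis has the highest Il7r, 54.2, and the MAR1 libraries lie above the cKO libraries in Il1rl1, at mast cell sums of 355 to 807.

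Il33 was the steadiest member. It stood at 56.9 and 24.3 CPM in untreated skin, at 78.4, 54.8 and 47.4 CPM with isotype and at 74.6, 31.2 and 22.5 CPM in the libraries labelled MAR1. The fl/fl libraries held 50.8, 108 and 133 CPM and the cKO libraries 35.1, 59.5 and 29.3 CPM. All neighbouring groups overlapped in the order of their means, fl/fl, isotype, MAR1, cKO and untreated. Its standard deviation over the 14 libraries was 0.77 on the log2 scale, against 2.81 for Tslp and 3.01 for Crlf2. No comparison passed. The nearest was cKO against fl/fl (log2 -1.24 ± 0.50, adjusted p = 0.0953), while the increases over untreated skin were 0.57 ± 0.56 with isotype (adjusted p = 0.615) and 1.26 ± 0.57 in fl/fl (adjusted p = 0.258). The difference between the MAR1 label and isotype, -0.49 ± 0.49 (adjusted p = 0.409), became 0.02 with RLE scaling and has no fixed direction.

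Counts of the alarmins within a library need no scaling, and their ratio separated untreated from treated skin. There were 0.0364 and 0.126 Tslp counts per Il33 count in untreated skin. The ratio was 7.30, 5.00 and 6.29 with isotype, 15.9, 2.69 and 9.13 in fl/fl, 1.49, 2.72 and 6.05 in cKO skin and 0.175, 3.39 and 2.13 in the libraries labelled MAR1. Every treated library lay above the untreated ones, and the isotype ratios lay above all MAR1 ratios. The fl/fl and cKO ratios overlapped.

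Il1rl1, which encodes the membrane receptor ST2 and its soluble decoy form, was at 11.9 and 5.92 CPM in untreated skin. With isotype it stood at 63.4, 50.01 and 53.8 CPM and in the libraries labelled MAR1 at 56.7, 30.5 and 22.5 CPM. The fl/fl libraries held 9.34, 20.5 and 16.3 CPM and the cKO libraries 14.998, 10.96 and 15.5 CPM. Isotype and MAR1 overlapped and both lay above every fl/fl, cKO and untreated library. Il1rl1 rose 6.24-fold over untreated skin with isotype (log2 2.64 ± 0.49, adjusted p = 0.0136) and 4.10-fold with the MAR1 label (log2 2.04 ± 0.47, adjusted p = 0.00362). In fl/fl and cKO skin the differences from untreated were 0.79 ± 0.45 (adjusted p = 0.368) and 0.63 ± 0.45 (adjusted p = 0.354). The isotype call was lost without isotype library 1 (log2 2.54, adjusted p = 0.0586), and without untreated library 1 the values were 3.23 with isotype and 2.62 with the MAR1 label.

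The control arms themselves differed in this receptor. Il1rl1 was 3.62-fold lower in fl/fl than in isotype skin (log2 -1.86 ± 0.40, adjusted p = 0.0347), where Il4ra allele, injections, age and experiment differ together and cannot be told apart. This call was lost in 7 of 14 fits that left out 1 library: isotype libraries 1, 2 and 3 (adjusted p = 0.093, 0.0637 and 0.0986), fl/fl libraries 1 and 2 (0.0556 and 0.0863) and MAR1 libraries 2 and 3 (0.0603 and 0.0524). Without fl/fl libraries 1 and 2 together, which leaves 1 fl/fl library, it was -2.08. Neither antibody nor deletion gave a call within its own experiment: the difference was -0.61 ± 0.39 for the MAR1 label against isotype (adjusted p = 0.203) and -0.16 ± 0.39 for cKO against fl/fl (adjusted p = 0.815). The former was -1.07 without MAR1 library 1 (adjusted p = 0.042), the library with the highest Il1rl1 of its group.

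Mast cell markers moved with Il1rl1 in part. The 11 markers summed to 1372, 1134 and 1165 CPM with isotype, 598 and 297 CPM in untreated skin and 519, 1012 and 821 CPM in fl/fl. They summed to 1031, 777 and 658 CPM in cKO skin and to 807, 486 and 355 CPM in the libraries labelled MAR1. At most 1 of the 11 was at 0 in any library. Of the 3 genes whose pattern was most like that of Il1rl1, Cd44, which is not on the mast cell list, came first. Kit, the stem cell factor receptor of mast cells, and Mrgprb1, a mast cell receptor, followed. With the MAR1 label 7 of the 11 markers fell, where 49.1% of all genes were called, by 3.61 on the log2 scale for Cpa3 (15.9 ± 8.17 against 196 ± 22.9 CPM, adjusted p = 0.00043). Kit did not change past the threshold there (log2 0.16 ± 0.32, adjusted p = 0.689). The other carriers of ST2 followed other orders. The 8 markers of group 2 innate lymphoid cells, at most 2 of them at 0, summed to 150 to 212 CPM with isotype, 259 to 292 CPM in the libraries labelled MAR1, 165 to 169.9 CPM in fl/fl, 209 to 312 CPM in cKO and 354 and 185 CPM in untreated skin. The 7 basophil markers, at most 1 at 0, summed to 73.1 to 89.7 CPM with isotype, 239 to 368 CPM in the libraries labelled MAR1, 24.2 to 45.6 CPM in fl/fl, 70.7 to 158 CPM in cKO and 16.9 and 21.5 CPM in untreated skin. The 5 markers of regulatory T cells, at most 1 at 0, summed to 54.2 to 72.9 CPM with isotype, 254 to 381 CPM in the libraries labelled MAR1, 28.5 to 163 CPM in fl/fl, 89.1 to 161 CPM in cKO and 57.5 and 84.0 CPM in untreated skin. All of these sums were higher in the libraries labelled MAR1 than with isotype, while the mast cell sums were lower. Single markers were mixed: 2 basophil markers were called higher and 3 lower, where 49.1% of all genes were called. Of the innate lymphoid markers 1 was higher and 1 lower, and of the regulatory T cell markers 2 and 1. Cd200r3 averaged 274 of a mean basophil sum of 310 CPM there, and Gata3 180 of an innate lymphoid sum of 280 CPM. Foxp3, the gene that defines regulatory T cells, averaged only 5.01 of a regulatory T cell sum of 324 CPM in the same libraries. The part of these cells in the Il1rl1 level was not tested.

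Il1rl1 has a pair of start sites in RefSeq, whose transcripts the gene counts add together, and both promoters are shown because of that. On GRCm38.p6 the 250 bases before the upstream site are at chr1:40429320-40429569, plus strand, and those before the downstream site at chr1:40439379-40439628, plus strand. Capitals mark AGATAA, read on the minus strand in the downstream promoter, and AGGTCA, and no matches overlap.
Il1rl1 upstream promoter: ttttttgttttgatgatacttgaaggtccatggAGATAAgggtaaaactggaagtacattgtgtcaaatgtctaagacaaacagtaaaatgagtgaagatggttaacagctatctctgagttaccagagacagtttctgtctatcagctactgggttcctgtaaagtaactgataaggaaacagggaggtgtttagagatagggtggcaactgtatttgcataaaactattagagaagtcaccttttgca
Il1rl1 downstream promoter: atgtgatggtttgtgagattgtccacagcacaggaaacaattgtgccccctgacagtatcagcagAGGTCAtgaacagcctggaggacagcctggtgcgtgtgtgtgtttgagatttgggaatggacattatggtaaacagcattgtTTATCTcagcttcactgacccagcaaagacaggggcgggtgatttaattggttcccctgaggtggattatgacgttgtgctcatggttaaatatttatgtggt
The GATA pattern lies at bases -217 to -212 of the upstream promoter and -103 to -98 of the downstream one, counted from the start site, and the half-site at -185 to -180 of the latter.

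Il1rap, the shared accessory chain, stood at 23.6 and 20.4 CPM in untreated skin and at 39.3, 47.8 and 46.8 CPM with isotype. The libraries labelled MAR1 held 12.5, 8.34 and 7.50 CPM. In fl/fl skin it stood at 6.59, 14.5 and 21.7 CPM and in cKO skin at 15.6, 32.04 and 12.5 CPM. The isotype libraries were the highest of all 14, and the other treated groups overlapped with their neighbours. Il1rap was 4.71-fold lower with the MAR1 label than with isotype (log2 -2.23 ± 0.45, adjusted p = 0.00155), a call that held when any 1 library was left out. Against untreated skin it was 2.32-fold lower (log2 -1.21 ± 0.48, adjusted p = 0.0475), but that call was lost in 13 of the 14 fits that left out 1 library, holding only without MAR1 library 1 (adjusted p = 0.0395), and its adjusted p reached 0.312 without untreated library 2 (log2 -0.82). It was 3.12-fold lower in fl/fl than in isotype skin (log2 -1.64 ± 0.44, adjusted p = 0.0457). That call was lost in 9 of 14 such fits, those without each isotype library (adjusted p = 0.105, 0.119 and 0.13), fl/fl libraries 1 and 2 (0.0622 and 0.111), MAR1 libraries 1, 2 and 3 (0.0567, 0.0691 and 0.0605) and cKO library 1 (0.056), while without fl/fl library 3 the value was -2.48. Between cKO and fl/fl skin it gave no call (log2 0.49 ± 0.43, adjusted p = 0.437).

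The proportions of the receptor chains were read within libraries. There were 4.53, 3.66 and 3.00 Il1rl1 counts per Il1rap count in the libraries labelled MAR1 and 1.61, 1.05 and 1.15 with isotype. The ratio was 0.506 and 0.290 in untreated skin, 1.42, 1.41 and 0.749 in fl/fl and 0.959, 0.342 and 1.23 in cKO skin. All MAR1 ratios lay above all others. For the TSLP receptor, Crlf2 counts per Il7r count were 0.169, 0.0241 and 0 in the libraries labelled MAR1, 1.36, 1.17 and 1.88 with isotype and 5.77 and 2.91 in untreated skin. They were 0.829, 3.33 and 8.30 in fl/fl and 1.37, 1.40 and 0.410 in cKO skin. Here the MAR1 ratios lay below all others.

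**Figure D4:**
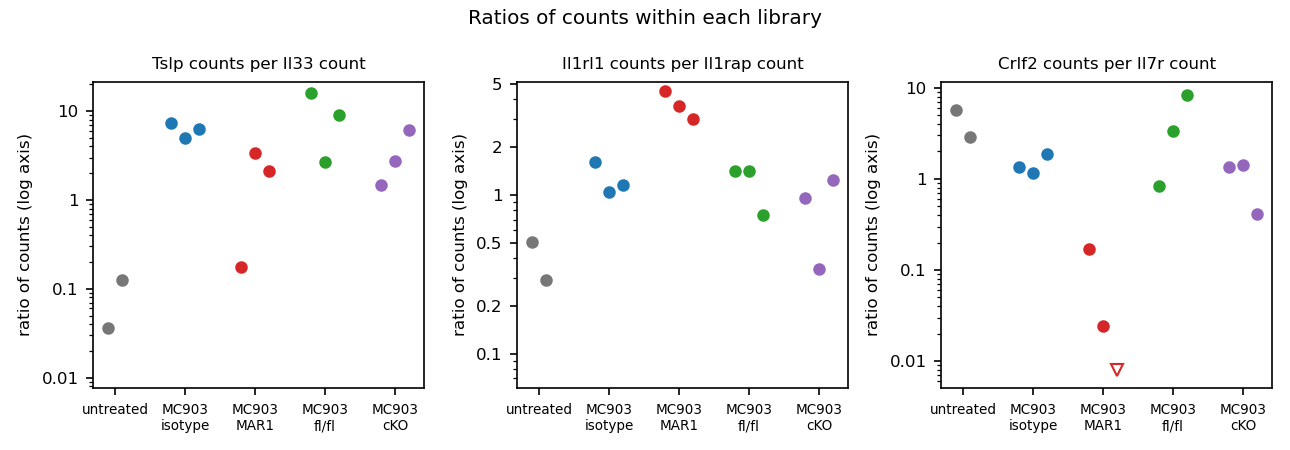
Counts of Tslp per Il33 count, Il1rl1 per Il1rap count and Crlf2 per Il7r count in each library, on log axes; the open triangle marks 0 counts of Crlf2. The MAR1 libraries are highest for Il1rl1 per Il1rap (3.00 to 4.53) and lowest for Crlf2 per Il7r.

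Per length the order of the members changed with treatment. In CPM per kilobase of the longest transcript, untreated skin had the most Crlf2 (22.8 ± 3.69, SD, n = 2), then Il33 (15.97 ± 9.05), Il1rap (4.86 ± 0.495), Tslp (2.27 ± 0.630), Il7r (2.25 ± 0.708) and Il1rl1 (1.68 ± 0.800). With isotype, Tslp led at 337 ± 146 (n = 3), followed by Il33 (23.7 ± 6.35), Crlf2 (16.4 ± 2.28), Il1rl1 (10.5 ± 1.30), Il1rap (9.87 ± 1.03) and Il7r (4.50 ± 0.476). In the libraries labelled MAR1, Tslp stood at 49.0 ± 41.3 per kilobase and Crlf2 at 0.292 ± 0.388. In cKO skin they stood at 115 ± 60.1 and 7.85 ± 5.76, and in fl/fl skin at 679 ± 406 and 29.3 ± 2.35. By group mean per kilobase Tslp was first and Il33 second in each of the 4 treated groups, and Il33 and Crlf2 overlapped in isotype, fl/fl and cKO skin.

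By comparison, isotype against untreated skin called 2 of the 6 genes, Tslp and Il1rl1, where 3.07% of all genes were called. The comparison of fl/fl with untreated skin called 1, Tslp (1.72% of all genes). With the MAR1 label against untreated skin 4 were called, Tslp and Il1rl1 higher and Crlf2 and Il1rap lower, but there 49.4% of all genes were called. In cKO against untreated skin 1 was called, Tslp (6.82% of all genes). With the MAR1 label against isotype 3 were called, Tslp, Crlf2 and Il1rap, all lower, where 49.1% of all genes were called, so the share of the 6 is near that of all genes. Between cKO and fl/fl skin 1 was called, Tslp, lower (18.7% of all genes). In fl/fl against isotype 2 were called, Il1rl1 and Il1rap, both lower (5.22% of all genes).

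The share of olfactory and vomeronasal receptor genes moved with the MAR1 and cKO groups. With that share as a covariate none of the members was called for MAR1 or cKO against any group (adjusted p at least 0.139). In the same fit 0 of all genes were called for MAR1 against isotype, where 10272 were called without the covariate. The loss of calls is therefore not read as a result about these members. With the covariate the differences between MAR1 and isotype were -3.83 for Tslp, -4.00 for Crlf2 and -0.55 for Il1rap, and that of Tslp between cKO and fl/fl -3.60. The part of this share and that of the group cannot be told apart in these libraries. With the share in the fit, the cKO difference minus the MAR1 difference passed for Crlf2 (adjusted p = 0.0217) and Il1rap (adjusted p = 0.0066). Because the share follows the groups, this does not separate the share from the group either. With RLE in place of TMM scaling the median of all genes moved by 0.59 in MAR1 against isotype and by 0.12 in cKO against fl/fl, and Tslp remained lower in both (log2 -2.16 and -2.42, adjusted p = 0.0284 and 0.0379).

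The cKO and MAR1 differences were also compared with each other, as the cKO difference minus the MAR1 difference. There 2 of the 6 passed, where 7.96% of all genes did. The value was 3.74 ± 1.05 for Crlf2 (adjusted p = 0.0463) and 2.73 ± 0.62 for Il1rap (adjusted p = 0.0272). Beside these stand the separate differences, -1.89 in cKO and -5.63 with the MAR1 label for Crlf2, and 0.49 and -2.23 for Il1rap, of which neither cKO difference passed. The control arms enter as well, and Il1rap was lower in fl/fl than in isotype skin (log2 -1.64). The differences for Il33 (-0.74 ± 0.69, adjusted p = 0.498), Il1rl1 (0.45 ± 0.55, adjusted p = 0.617) and Il7r (0.03 ± 0.96, adjusted p = 1) did not pass. The Crlf2 call was lost in 9 of 14 fits that left out 1 library: untreated library 1 (adjusted p = 0.0503), isotype libraries 1, 2 and 3 (0.086, 0.0946 and 0.0969), MAR1 libraries 2 and 3 (0.105 and 0.0967), fl/fl library 2 (0.0891) and cKO libraries 1 and 2 (0.091 and 0.0593). The Il1rap call was lost in 6: isotype libraries 1, 2 and 3 (0.058, 0.0756 and 0.068), MAR1 libraries 2 and 3 (0.0631 and 0.0744) and fl/fl library 2 (0.0593). Without MAR1 library 1, which holds 12 of the 14 Crlf2 counts of its group, the Crlf2 value was 5.67, and without cKO library 3 it was 4.54. Without fl/fl library 3 the Il1rap value was 3.54. Without fl/fl libraries 1 and 2, which leaves 1 fl/fl library, the values were 4.08 for Crlf2 and 2.40 for Il1rap.

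**Figure D5:**
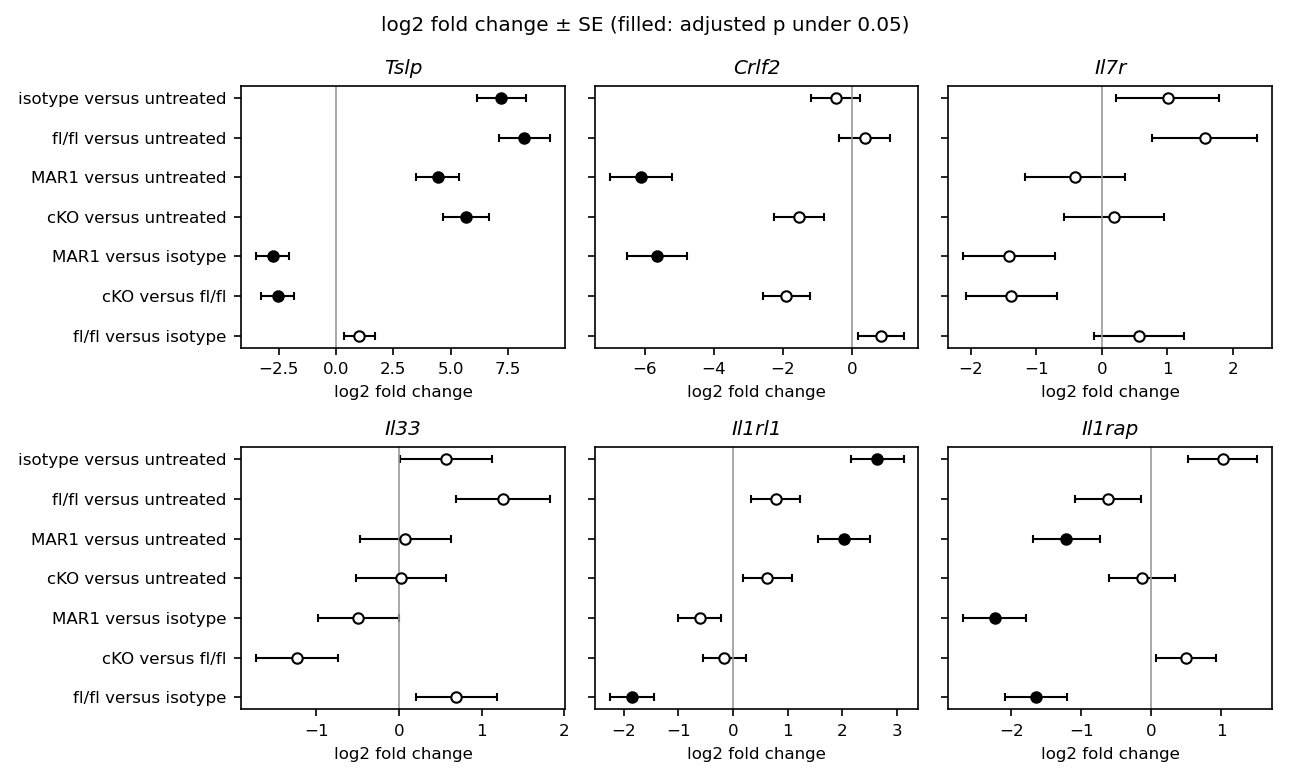
The log2 fold change of each gene in 7 comparisons, with SE; filled points have an adjusted p under 0.05. Tslp is filled in 6 of the 7, Il7r and Il33 in none.

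A list of 8 genes covered the pathway that induces Tslp, with Cyp24a1 as a readout of the vitamin D receptor. Cyp24a1, a target of the vitamin D receptor that breaks down vitamin D, was at 0.0118 CPM in untreated skin on average and at 4279 ± 493 CPM with isotype (adjusted p = 0.000165), and in that comparison no other gene of the list passed. In the libraries labelled MAR1, 7 of 8 were lower than with isotype, and the list's median was -1.59 on the log2 scale, against 0.00 over all genes, 49.1% of which were called. Cyp24a1 stood at 343 ± 60.6 CPM there (log2 -3.64 ± 0.74, adjusted p = 0.00161). F2rl1, the protease receptor PAR2, fell by 2.93 (adjusted p = 0.00167), and the retinoid X receptor genes Rxra and Rxrb, partners of the vitamin D receptor, fell by 1.62 and 1.56 (adjusted p = 0.00241 and 0.00264). In cKO against fl/fl skin 1 of 8 passed, the calcium channel gene Orai1 (log2 -1.57 ± 0.31, adjusted p = 0.00464), where 18.7% of all genes were called. The list's median was -0.53, against 0.03 over all genes. Cyp24a1 was at -1.46 (adjusted p = 0.14), with 1609 ± 535 CPM in cKO and a wide 4431 ± 5305 CPM in fl/fl skin, and the groups overlapped. Orai1 was also higher in fl/fl than in isotype skin (log2 1.26 ± 0.30, adjusted p = 0.0389).

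Of 13 genes that act with or after the TSLP and IL-7 receptor, 3 were higher and 5 lower with the MAR1 label than with isotype, with a median of -0.81, where 49.1% of all genes were called and their median was 0.00. The kinase genes Jak1 and Jak2 fell by 2.36 and 2.09 (adjusted p = 0.000376 and 0.000613), and Socs3 and Cish, inhibitors induced by STAT proteins, fell by 2.91 and 1.63 (adjusted p = 0.000779 and 0.00545). The higher genes were Bcl2, which blocks cell death (72.7 against 11.03 CPM, adjusted p = 0.00961), the kinase gene Pim1 (265 against 128 CPM, adjusted p = 0.0378) and the inhibitor gene Socs2 (72.8 against 32.9 CPM, adjusted p = 0.00947). In cKO against fl/fl skin 4 of 13 were lower and none higher, with a median of -0.99 (all genes 0.03, 18.7% called). Cish was 11.4 ± 4.79 CPM in cKO and 46.1 ± 11.2 CPM in fl/fl skin (log2 -2.01 ± 0.40, adjusted p = 0.00517), without overlap. Socs3 fell by 1.63 (adjusted p = 0.0339), Socs1 by 2.11 (0.0256) and Il2rg, the common gamma chain that pairs with IL7R, by 2.68 (0.0404), and of these Socs1 and Il2rg overlapped between groups. The T cell markers, which summed to 80.8 to 1652 CPM in fl/fl skin, fell in 5 of 10 cases in the same comparison, and their part was not tested. In isotype against untreated skin none of the 13 passed, their median was -0.82 (all genes 0.11), and the lowest adjusted p was 0.0689, for Cish, which was lower (log2 -1.55 ± 0.43).

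Of 17 genes of IL-33 receptor signalling, 8 were lower and none higher with the MAR1 label than with isotype, with a median of -0.86, a share called near the 49.1% of all genes. The kinase gene Map3k7 fell by 2.91 (adjusted p = 0.000275), the adaptor gene Myd88 by 1.83 (0.000552), Mapk14, which encodes p38, by 2.09 (0.000723) and Irak3 by 2.16 (0.00101). In cKO against fl/fl skin 4 were lower and 1, the kinase gene Chuk, higher, with a median of -0.55, where 18.7% of all genes were called. Irak1, a kinase that binds MyD88, fell by 1.06 (adjusted p = 0.0096), the NF-κB inhibitor gene Nfkbia by 1.38 (0.0239), the NF-κB subunit gene Rela by 1.08 (0.0293) and Myd88 by 1.02 (0.0306). None of the 17 passed in isotype against untreated skin or in fl/fl against isotype.

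Of 11 genes of proteases known to cut IL-33, the mast cell tryptase gene Tpsb2 rose in isotype against untreated skin (276 ± 12.7 against 58.8 ± 41.7 CPM, adjusted p = 0.0486). In the libraries labelled MAR1, 2 were higher and 6 lower than with isotype, with a median of -0.99, where 49.1% of all genes were called. Casp1, which encodes the protease that matures IL-1β, and Tpsb2 fell by 1.99 and 2.11 (adjusted p = 0.00243 and 0.00324). None of the 11 passed in cKO against fl/fl skin, where their median was -0.18.

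Of 10 IL-1 and IL-36 genes that share Il1rap, Il36a and Il36b rose in isotype against untreated skin. Il36a went from 0.180 ± 0.180 to 12.3 ± 9.06 CPM (adjusted p = 0.0145) and Il36b from 2.86 ± 0.400 to 82.9 ± 17.6 CPM (adjusted p = 0.0412). Of the same 10, 6 were lower with the MAR1 label than with isotype and none higher, with a median of -1.99, where 49.1% of all genes were called. The IL-1 receptor gene Il1r1, the chain that binds IL-1 beside IL1RAP, fell by 2.69 (adjusted p = 0.000357), the IL-36 receptor gene Il1rl2 by 2.17 (0.00223) and its antagonist gene Il36rn by 2.80 (0.00199), in the same libraries in which Il1rap fell. None of the 10 passed in cKO against fl/fl skin, where their median was -0.09.

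The genes most like each member were named by the smallest root mean square difference of log2 CPM over the 14 libraries, each gene centred on its mean, among 15340 candidates. For Tslp they were Ecel1, a peptidase gene (0.68), Tchh, which encodes trichohyalin (0.87), and Sprr2h, of the cornified envelope (0.98). For Crlf2 they were Apba3 (0.53), Btbd6 (0.53) and Mettl27 (0.64). For Il7r they were Pag1 (0.40), S1pr1, the receptor that guides lymphocyte exit (0.46), and Sigirr, an inhibitor of IL-1 family receptors (0.51). For Il33 they were Bhlhe40 (0.37), Midn (0.42) and Kcmf1 (0.42). For Il1rl1 they were Cd44 (0.59), Kit (0.65) and Mrgprb1 (0.65), and for Il1rap Tmtc3 (0.31), Myof (0.32) and the receptor gene Bmpr1a (0.33). These libraries share depth, receptor gene share and base composition by group, and likeness says nothing of shared control.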

How the data were processed

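Poly(A) RNA of frozen, cryosectioned neck skin was sequenced in 14 libraries. The authors deposited 1 table of estimated counts per gene symbol; per the submitters' processing notes, Salmon 1.2.1, DESeq2 1.44.0 and GRCm39 were used, with no role given for each. Counts were rounded to whole numbers. All 5 groups were fitted together with edgeR 4.0.16 (limma 3.58.1, R 4.3.3): TMM scaling, its default filter on low counts, robust quasi-likelihood tests, 1 mean per group, 2-sided, with Benjamini-Hochberg adjustment over 20940 genes and a threshold of 0.05. The common dispersion was 0.361, with 9 residual degrees of freedom. Standard errors are the log2 fold change divided by the root of the F statistic. Library totals of 5781757 to 55299671 set the counting precision, which is lowest in the libraries labelled MAR1. The script was tested on simulated counts.

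The 6 genes and the gene lists were chosen with earlier results of these data known. The text names all 6 genes, up to 4 genes per list by adjusted p among those past the threshold, and the 3 genes most like each member (candidates with a mean of at least 1 CPM). Of the proteases some genes are not reported here. A few other genes were named after their values were seen: Cyp24a1, Orai1 and Cish outside the comparisons in which they ranked, Bcl2, Pim1 and Socs2, Chuk, and the marker, label check and neighbouring genes. The alternatives were RLE scaling, no filter or a stricter one (1 CPM in at least 3 libraries), a fit of only the compared groups, a replicate block, the receptor gene share as covariate, libraries thinned to the shallowest, the untreated libraries summed, DESeq2 1.42.0 and each library left out. Leaving out fl/fl libraries 1 and 2 was chosen after seeing the data and leaves 1 fl/fl library, with no replicate in that group. Promoters came from RefSeq on GRCm38.p6 and transcript lengths and GC from GENCODE M21, and no gene coordinates of the authors' build were used. Tables and figures were made with pandas 2.3.3 and matplotlib 3.10.9.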

Additional observations from a re-analysis of the deposited data

Results flagged for a closer look

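The difference of the cKO effect and the MAR1 effect passed its own test for Crlf2 (3.74 on the log2 scale) and for Il1rap (2.73). Both draw on the libraries labelled MAR1, which are the shallowest of the series and hold 14 counts of Crlf2 in all. They also draw on the control arms, and leaving out any isotype library lost both calls. Il1rap was lower in fl/fl than in isotype skin, a difference that enters its value.

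The control arms that received MC903 differed from each other in Il1rl1 (-1.86, fl/fl minus isotype on the log2 scale) and Il1rap (-1.64), both ST2 receptor chains. Il4ra allele, injections, age and experiment differ together between these arms.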

How the results depend on the processing

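Over the alternatives, 966 values kept their direction and side of the threshold, 92 lost a call, 10 gained one and 60 changed direction. The libraries labelled MAR1 hold few counts of Crlf2, and only 2 untreated libraries stand behind each comparison with untreated skin. No cause of a change was tested.

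The number of all genes called moved with the setting too. Over the alternatives it ran from 102 to 3444 for isotype against untreated skin and from 14 to 5877 for cKO against fl/fl. The counts of the 6 below are therefore not read as a result about these genes. The number of the 6 genes called was 4 for isotype against untreated skin with only those groups fitted and 0 with the untreated libraries summed. It was 0 for fl/fl against untreated skin with only the groups compared, and 0 for cKO against untreated skin with the untreated libraries summed. With the olfactory and vomeronasal receptor gene share as covariate it was 0 for MAR1 and cKO against untreated skin, MAR1 against isotype, cKO against fl/fl and fl/fl against isotype. For cKO against fl/fl it was 0 with only those groups, 2 after thinning and 2 by DESeq2. For fl/fl against isotype it was 1 with only those groups and 0 with the replicate block and after thinning. For the cKO minus the MAR1 difference it was 1 with RLE scaling, without a filter and with only those groups, and 0 with the replicate block. Leaving out 1 library gave 1 to 2 for isotype against untreated skin, 0 to 1 for fl/fl and cKO against untreated skin, and 0 to 2 for cKO against fl/fl, fl/fl against isotype and the cKO minus the MAR1 difference. For MAR1 against untreated skin the number was 3 to 4.

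Directions changed as follows on the log2 scale. With the receptor gene share as covariate, Crlf2 was 0.20 for isotype and -0.0915 for fl/fl against untreated skin and -0.29 for fl/fl against isotype. Il1rap was 1.09 for MAR1 and 1.10 for cKO against untreated skin, and Il7r was -0.23 for cKO against untreated skin. Il33 was 1.74 for MAR1 against isotype, 1.29 for cKO against fl/fl and -0.92 for fl/fl against isotype, and Il1rl1 was 0.39 and 1.03 for MAR1 against isotype and cKO against fl/fl. With RLE scaling and with DESeq2, Il7r was 0.16 for MAR1 against untreated skin and Il33 0.0233 (RLE) and 0.0227 (DESeq2) for MAR1 against isotype, and for the cKO minus the MAR1 difference Tslp was -0.26 and Il7r -0.43. With only the groups compared that difference was -0.0808 for Tslp and -0.25 for Il7r, and Il1rl1 was 0.0078 for cKO against fl/fl. The stricter filter gave -0.0693 and thinning -0.51 for Il7r in it. With the untreated libraries summed, Il33 was -0.053 for MAR1 and -0.10 for cKO against untreated skin. Without fl/fl libraries 1 and 2, Il7r was -0.84 for fl/fl against untreated skin, 1.23 for cKO against fl/fl and -2.06 for fl/fl against isotype, Il1rap was 0.11 for cKO against untreated skin, Il1rl1 0.0578 for cKO against fl/fl, and Tslp -0.11 for the cKO minus the MAR1 difference.

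Leaving out 1 library moved Il7r from -0.10 to 1.91 for fl/fl, from -0.72 to 0.43 for MAR1 and from -0.13 to 0.98 for cKO against untreated skin, from -1.70 to 0.49 for cKO against fl/fl, from -1.31 to 0.89 for fl/fl against isotype and from -0.29 to 1.89 for the cKO minus the MAR1 difference. It moved Il33 from -0.59 to 0.81 for MAR1 and from -0.0505 to 0.76 for cKO against untreated skin, Il1rap from -0.39 to 0.34 for cKO against untreated skin, Il1rl1 from -0.22 to 0.36 for cKO against fl/fl, and Tslp from -0.25 to 1.11 for the cKO minus the MAR1 difference.

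Samples of the same number in their titles showed no strong shared deviation. Their correlations over genes were -0.14, -0.094 and 0.063 for MAR1 with isotype and 0.077, 0.032 and -0.056 for cKO with fl/fl. Samples of unlike number reached -0.20 (cKO 2 with fl/fl 1) and 0.198 (MAR1 1 with isotype 2). With 3 libraries per group, and library names that partly carry other numbers than the titles, this cannot exclude a pairing. With the replicate block Tslp was -3.02 for MAR1 against isotype and -2.68 for cKO against fl/fl, Il1rl1 -1.80 for fl/fl against isotype (adjusted p = 0.06) and Il1rap 2.69 for the cKO minus the MAR1 difference (adjusted p = 0.0515).

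Counts of all genes called ranged, over all alternatives with edgeR or DESeq2, widely around the counts of the report's fits. They ran from 102 to 3444 for isotype against untreated skin (643 in the fit reported, 3759 at an unadjusted p under 0.05), from 0 to 2072 for fl/fl against untreated skin (360, 3837), from 3 to 11415 for MAR1 against untreated skin (10344), from 107 to 4751 for cKO against untreated skin (1429), from 0 to 12223 for MAR1 against isotype (10272, 12035), from 14 to 5877 for cKO against fl/fl (3908), from 0 to 3298 for fl/fl against isotype (1094, 5079) and from 1 to 4864 for the cKO minus the MAR1 difference (1666).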

Other observations

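Type 2 effector genes, which act after these alarmins, did not move as 1 group. Of 15 listed genes 12 were tested, while Il9, Il31 and Il3 were too low. Retnla, a product of alternatively activated macrophages, was lower in isotype than in untreated skin (8.49 against 706 CPM, log2 -6.38 ± 1.36, adjusted p = 0.0272), the only 1 of the 12 to pass there. With the MAR1 label against isotype 3 were higher and 2 lower, where 49.1% of all genes were called. Retnla and the eosinophil chemokine gene Ccl24 were higher (log2 4.08 ± 1.19 and 3.56 ± 0.81, adjusted p = 0.0139 and 0.00338), and Arg1, the arginase gene of alternatively activated macrophages, and Areg, the epidermal growth factor receptor ligand amphiregulin, were lower (-5.51 ± 1.14 and -2.83 ± 0.76, adjusted p = 0.00212 and 0.00859). In cKO against fl/fl skin Ccl22, a chemokine of dendritic cells, passed the test (log2 -3.90 ± 0.97, adjusted p = 0.0158), but the groups overlapped, at 5.13 to 261 CPM in fl/fl (109 ± 135, SD, n = 3) and 5.48 to 10.5 CPM in cKO. The dendritic cell markers, which summed to 22.0 to 306 CPM in fl/fl and 55.4 to 75.2 CPM in cKO skin, overlapped, and their part was not tested.

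The cytokine genes that ST2-bearing cells are known for were low in whole skin. Il4 averaged between 0.491 CPM in fl/fl and 1.36 CPM in untreated skin, and Il13 between 0.0286 and 0.492 CPM. Of the third epithelial alarmin, IL-25, and its receptor, Il17ra was lower with the MAR1 label than with isotype (log2 -1.56 ± 0.35, adjusted p = 0.0028) and in cKO than in fl/fl skin (log2 -1.39 ± 0.34, adjusted p = 0.0137), and Il25 itself averaged at most 1.83 CPM in any group. The ligand gene Il7, which shares Il7r with TSLP, averaged 1.40 CPM with isotype and 3.93 CPM in fl/fl skin, with no call.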
